A study of Homo sapiens with 4 samples.

Results

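Named antisense RNAs are transcripts read from the DNA strand opposite another gene and called after that gene with the ending AS and a digit. The deposited count table of U87 glioblastoma cells held 1218 such genes among 58219. The 162 with a mean raw count of at least 100 over the 4 libraries were taken here, each beside the gene named before its ending, here called its sense gene. Of the rest, 568 had no count in any library and 488 had counts below that mean. A sense gene was found in the table for 160 of the 162 (159 by the same symbol, and ZNF295-AS1 through ZBTB21, the current name of ZNF295). HOXD-AS2 and RPARP-AS1 had none. Because DLGAP1, GAS6 and PAXIP1 are each named by more than 1 member, these are 157 distinct sense genes, of which 139 had enough counts to be tested. Members were thus chosen by their name and by a mean count that includes the carnosine libraries. For 4 of them the mean of the controls alone was below 100, and for 16 that of the carnosine libraries alone. Those reached the minimum only through the group in which they are high, and 3 of them, HIF1A-AS1, ZNF295-AS1 and SP2-AS1, are among the calls below.

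U87 is an established human glioblastoma line (from ATCC per the labels). The study compared cells given fresh medium with 50 mM carnosine, a dipeptide of beta-alanine and histidine, with cells given fresh medium without it (0 mM), both for 24 h, with 2 libraries per group. Nothing else is given as differing between the groups, and both come from 1 line in serum-containing culture. Nothing states that the libraries of a group came from separate cultures, so p-values measure only the spread between these libraries, which may be technical.

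Antisense RNAs arise in several ways. Some start in the shared promoter of a sense gene and run away from it, and others start within or behind the sense gene and run across it. A few act on the sense gene by blocking its transcription, pairing with its RNA or recruiting chromatin enzymes, many act elsewhere or have no known role, and some are only the carriers of small nucleolar RNAs in their introns. Many are short-lived because the nuclear RNA exosome degrades them. In glioblastoma several long noncoding RNAs of this kind have been studied as markers of malignant growth.

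Depth was 51632970 to 71766267 counts per library. Of the line markers, VIM, FN1, TNC and CD44 were abundant, with mean levels of 7232, 4776, 1683 and 1194 CPM (counts scaled to a fixed library size, the usual per-library unit of RNA-seq) in controls. The glial filament gene GFAP had counts of only 16, 4, 10 and 14, and CDKN2A, CDKN2B and MTAP were at 0 in all 4 libraries. Of 13 markers of other cell types 7 were at 0 in all libraries, among them RBFOX3, STMN2, CD3E, AIF1, CDH5 and CLDN5. The neuron markers SNAP25 (454 to 1283 counts) and SYT1 (530 to 680) and the endothelial marker PECAM1 (148 to 365) were clearly counted, while CD68, VWF and PTPRC had at most 53 counts. The summed CPM of the 4 neuron markers was 25.3 to 27.6 in controls and 19.5 to 22.7 with carnosine, and that of the 4 endothelial markers 2.28 to 2.90 and 5.54 to 6.77, the latter mostly through PECAM1. The part of these shifts in the results below was not tested. In a bulk sample, fewer cells with a transcript and less of it per cell cannot be told apart.

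The start regions of 5 antisense RNAs that passed the test described below show what lies at the starts that RefSeq gives for these transcripts. The windows are those of RefSeq (build GRCh38.p14), from 250 bases before to 50 after the start, written 5′ to 3′ on the strand of the antisense RNA, with the bases from the start onwards in capitals. HIF1A-AS1 starts inside the first exon of HIF1A, the gene of the oxygen-regulated transcription factor subunit, so its window (chr14:61695805-61696073, minus strand) is given for 269 bases, less the part of HIF1A that is not translated. The others are ZNF295-AS1 (chr21:42008944-42009243, plus strand), SLC9A3-AS1 (chr5:472986-473285, plus strand), NOP14-AS1 (chr4:2935296-2935595, plus strand) and PPP3CB-AS1 (chr10:73495502-73495801, plus strand). The first 3 rose with carnosine and the last 2 fell. RefSeq and GENCODE 29, whose positions are given for the genes below, place the start of the first 3 at the same base. The RefSeq starts of NOP14-AS1 and PPP3CB-AS1 lie 647 and 227 bases inside the GENCODE genes, so their windows show the RefSeq start and not the first base of the counted gene.
HIF1A-AS1: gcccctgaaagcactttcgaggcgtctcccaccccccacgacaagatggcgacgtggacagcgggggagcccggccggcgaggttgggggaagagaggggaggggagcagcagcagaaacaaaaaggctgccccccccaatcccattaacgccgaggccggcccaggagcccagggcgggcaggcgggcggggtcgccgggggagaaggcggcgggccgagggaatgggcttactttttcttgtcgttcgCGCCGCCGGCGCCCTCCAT
ZNF295-AS1: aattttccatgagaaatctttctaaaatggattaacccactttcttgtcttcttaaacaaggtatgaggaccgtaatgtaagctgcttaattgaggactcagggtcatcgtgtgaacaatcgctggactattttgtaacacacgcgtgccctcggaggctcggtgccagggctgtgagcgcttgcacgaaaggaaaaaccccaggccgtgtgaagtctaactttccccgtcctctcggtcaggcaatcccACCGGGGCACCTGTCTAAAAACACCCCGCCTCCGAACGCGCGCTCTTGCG
SLC9A3-AS1: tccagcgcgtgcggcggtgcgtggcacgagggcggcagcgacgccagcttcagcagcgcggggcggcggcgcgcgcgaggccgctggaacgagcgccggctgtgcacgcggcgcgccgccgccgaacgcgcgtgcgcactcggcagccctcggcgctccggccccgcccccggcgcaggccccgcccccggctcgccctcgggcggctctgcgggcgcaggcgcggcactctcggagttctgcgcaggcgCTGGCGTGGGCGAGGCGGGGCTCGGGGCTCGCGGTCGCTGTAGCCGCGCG
NOP14-AS1: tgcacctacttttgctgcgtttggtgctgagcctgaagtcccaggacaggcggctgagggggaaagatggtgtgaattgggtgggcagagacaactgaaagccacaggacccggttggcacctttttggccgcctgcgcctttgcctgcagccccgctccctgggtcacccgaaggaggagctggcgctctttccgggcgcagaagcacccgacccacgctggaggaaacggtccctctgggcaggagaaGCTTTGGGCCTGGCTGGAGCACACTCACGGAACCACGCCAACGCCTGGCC
PPP3CB-AS1: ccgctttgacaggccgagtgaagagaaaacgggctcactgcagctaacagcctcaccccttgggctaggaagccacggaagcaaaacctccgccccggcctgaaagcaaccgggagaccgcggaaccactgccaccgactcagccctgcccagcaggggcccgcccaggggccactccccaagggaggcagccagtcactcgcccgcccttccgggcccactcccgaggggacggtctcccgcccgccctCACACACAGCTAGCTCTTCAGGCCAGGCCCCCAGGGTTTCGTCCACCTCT
The SLC9A3-AS1 window is made of 82.33% G and C and holds 61 CpG pairs, against 26 in the printed HIF1A-AS1 stretch, 19 in the ZNF295-AS1 window, 16 in that of NOP14-AS1 and 19 in that of PPP3CB-AS1.

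RefSeq windows were at hand for 107 of the 162 antisense RNAs and for 132 of the 157 sense genes. Their median number of CpG pairs was 24 and 25.5, against 14 over all 35116 windows of the table, and their median share of G and C was 64.0% and 66.8% against 58.7%. Several short motifs, none of them part of another, were searched on both strands. The CCAAT box (CCAAT) was in 35.5% of the antisense and 34.6% of all windows, the ETS motif (CCGGAAG) in 15.9% and 10.3%, the E box (CACGTG) in 8.41% and 7.26%, and the TATA box (TATAAA) in 2.80% and 11.5%. The cAMP response element (TGACGTCA) was in 3.74% of the antisense and 1.85% of all windows, and a forkhead motif (GTAAACA) in 1.87% and 3.42%. Among the 9 windows of antisense RNAs past the test, 5 held a CCAAT box, for example 114 bases before the start of HIF1A-AS1 and 175 before the RefSeq start of NOP14-AS1 (inside the GENCODE gene), and 1 held the cAMP response element, 32 bases before the start of POT1-AS1. A match of letters is no evidence of a bound factor.

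Among the 162 antisense RNAs, 4 rose and 8 fell with carnosine, and 150 did not pass the test (edgeR's quasi-likelihood test, Benjamini-Hochberg adjusted p under 0.05 over all 16340 genes tested). That is 7.41% called. Over all genes tested 8.31% were called, 3.95% higher and 4.36% lower, and over the 11967 tested genes with a mean count of at least 100 the share was 10.5% (4.65% higher and 5.85% lower). The share of antisense RNAs is near that background, so it is no result about them as a class. Some of the 12 calls were lost with any 1 library left out, and more of them without a control library than without a carnosine library. Calls over all genes tested also became fewer without either control library, so this loss is no result about antisense RNAs as a class. The median log2 fold change was -0.07 over the 162 and 0.00 over all genes tested, and values ran from -1.65 (SP2-AS1) to 2.61 (HIF1A-AS1). Both carnosine libraries lay above both controls for 41 and below them for 62, or 63.6% together, where 56.5% of all genes tested, and 60.0% of those with a mean count of at least 100, were apart in this way. The unadjusted p was under 0.05 for 48 of the 162 (29.6%), beside 27.4% of all genes tested and 31.7% of those with a mean count of at least 100. The summed level of all 162 was 1891 and 1953 CPM in controls and 2015 and 1963 CPM with carnosine.

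Among the members the largest rise was that of HIF1A-AS1 (ENSG00000258777.1, chr14:61681041-61695823, minus strand, 652 exonic bases in 2 blocks). Its raw counts were 22 and 46 in controls and 144 and 212 with carnosine, or 0.309 and 0.784 CPM against 2.39 and 4.21 CPM. With a control mean of 34 and a carnosine mean of 178 counts it is a member only through the carnosine libraries, so its place in this order was partly set by the choice. Both carnosine libraries were far above both controls, although the controls themselves differed more than 2-fold. The rise was 6.09-fold (log2 fold change 2.61 ± 0.49 SE, n = 2 per group, edgeR adjusted p = 0.0289). Leaving out each library in turn kept the call, at log2 fold changes of 2.06 to 3.40, so its size depended on the library. HIF1A itself was among the abundant genes, at 592 and 604 CPM in controls and 781 and 1052 CPM with carnosine. Its log2 fold change of 0.62 ± 0.16 did not pass (edgeR adjusted p = 0.061), but it did without carnosine replicate 1 (0.81, edgeR adjusted p = 0.00688), by total counts (0.0403), with no filter (9.7e-05) and by DESeq2 (0.00224). HIF1A-AS1 shares 117 exonic bases, 17.9% of its own, with HIF1A on the opposite strand, and per length it stood at 2.01% of the level of HIF1A. The libraries were made with a stranded kit, but the sources used here do not say whether the counting used strand. Without it, reads from a gene and its antisense partner cannot be told apart where their exons overlap, which holds for every overlapping pair below.

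ZNF295-AS1 (ENSG00000237232.7, chr21:42009194-42024924, plus strand, 1363 exonic bases in 4 blocks) had 1.36 and 0.937 CPM in controls and 7.30 and 4.29 CPM with carnosine. Like HIF1A-AS1 it is a member only through the carnosine libraries, with a control mean of 76 counts. Its rise was 5.01-fold (log2 fold change 2.33 ± 0.33, edgeR adjusted p = 0.017) and was called with each library left out, at 1.89 to 2.65. Its sense gene ZBTB21, a zinc finger transcription factor, rose too, from 44.8 and 43.2 CPM to 61.1 and 60.2 CPM (log2 fold change 0.46 ± 0.09, edgeR adjusted p = 0.0317). This is the 1 pair in which both genes passed. The call of ZBTB21 was lost without control replicate 1 (edgeR adjusted p = 0.127), control replicate 2 (0.192) or carnosine replicate 1 (0.0545). The pair shares 118 exonic bases.

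SLC9A3-AS1 (ENSG00000225138.7, chr5:473236-480884, plus strand, 4302 exonic bases in 5 blocks) had the most counts among those that rose, at 11.4 and 10.5 CPM in controls and 39.2 and 25.0 CPM with carnosine. The groups were well apart, and the 2 carnosine libraries differed from each other more than the controls did. The rise was 2.93-fold (log2 fold change 1.55 ± 0.21, edgeR adjusted p = 0.0158), and it was called with each library left out, at 1.18 to 1.83. SLC9A3, the sodium-hydrogen exchanger of gut and kidney epithelium, had 0 counts in all 4 libraries, although 830 exonic bases of the pair overlap.

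POT1-AS1 (ENSG00000224897.6, chr7:124929873-125179315, plus strand, 6304 exonic bases in 18 blocks) rose 2.40-fold, from 1.73 and 1.31 CPM to 4.17 and 3.16 CPM (log2 fold change 1.27 ± 0.27, edgeR adjusted p = 0.0381). Its call was lost without control replicate 2 (log2 fold change 1.08, edgeR adjusted p = 0.121) and without carnosine replicate 1 (1.05, adjusted p = 0.0899). POT1, which covers the single-stranded end of telomeres, starts 23 bases away on the other strand. Its level was 34.0 and 39.8 CPM in controls and 31.4 and 32.8 CPM with carnosine, a log2 fold change of -0.20 ± 0.11 (edgeR adjusted p = 0.31).

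**Figure D1:**
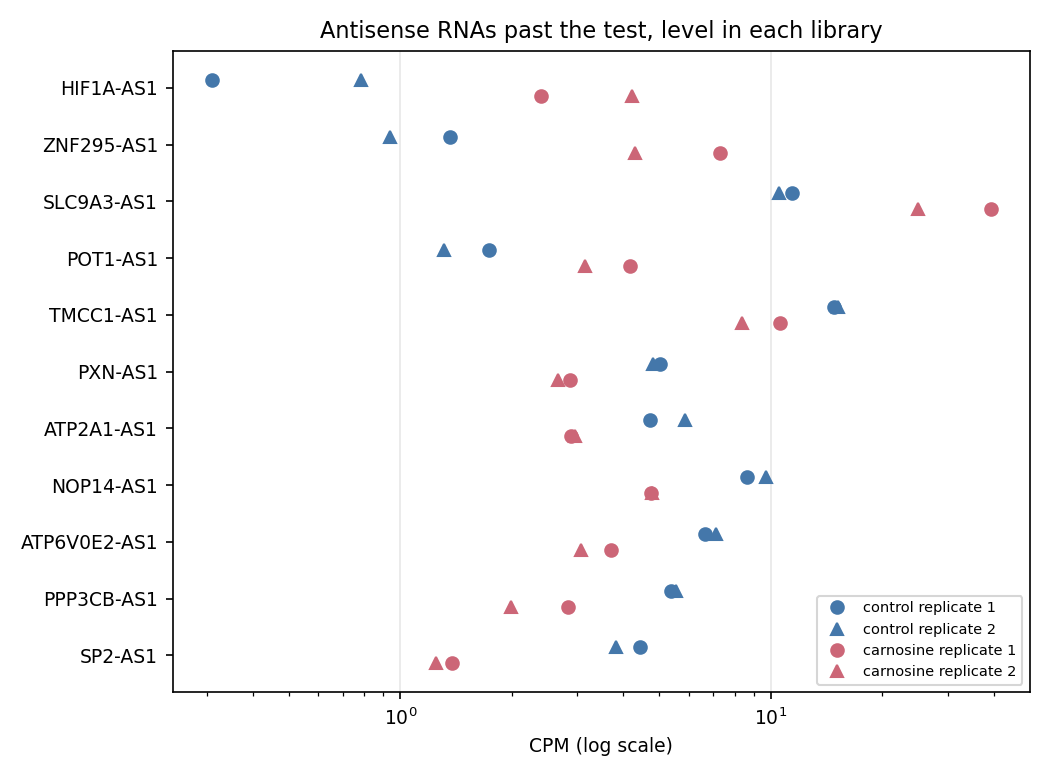
Level of 11 of the 12 antisense RNAs that passed the test in each of the 4 libraries, in CPM on a log axis, with 1 point per library (blue for control, red for carnosine). In every row both carnosine points lie on the same side of both control points, with the widest separation in HIF1A-AS1 and ZNF295-AS1.

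The strongest fall was that of SP2-AS1 (ENSG00000234494.7, chr17:47897330-47941410, minus strand, 2531 exonic bases in 5 blocks). It had 4.43 and 3.82 CPM in controls and 1.38 and 1.25 CPM with carnosine, a 3.13-fold lower level (log2 fold change -1.65 ± 0.23, edgeR adjusted p = 0.0163), called with each library left out at -1.75 to -1.54. Its mean count was 269.5 in controls and 73 with carnosine, so it is a member only through the controls. SP2, a transcription factor of the Sp family, showed no such separation. Its levels of 9.77 and 5.30 CPM in controls and 9.99 and 5.997 CPM with carnosine overlapped, the log2 fold change was 0.08 ± 0.34 (edgeR adjusted p = 0.904), and it turned to -0.29 without control replicate 2 and to -0.34 without carnosine replicate 1. The spans of this pair overlap, but their exons share no base.

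PPP3CB-AS1 (ENSG00000221817.9, chr10:73495525-73520070, plus strand) fell from 5.37 and 5.54 CPM to 2.83 and 1.99 CPM (log2 fold change -1.18 ± 0.23, edgeR adjusted p = 0.0314). Its call was lost without control replicate 1 (edgeR adjusted p = 0.0576) or control replicate 2 (0.068). It shares 13 exonic bases with PPP3CB, a catalytic subunit of the phosphatase calcineurin, and 1528 with USP54. PPP3CB had 40.9 and 34.8 CPM in controls and 30.7 in both carnosine libraries (log2 fold change -0.30 ± 0.11, edgeR adjusted p = 0.145). ATP6V0E2-AS1 (ENSG00000204934.10, chr7:149867697-149880610, minus strand) fell from 6.64 and 7.09 CPM to 3.69 and 3.08 CPM (log2 fold change -1.02 ± 0.18, edgeR adjusted p = 0.0265), and was not called without control replicate 2 (edgeR adjusted p = 0.0763). ATP6V0E2, a subunit of the vacuolar proton pump, stood at 119 and 100 CPM in controls and at 132 and 136 CPM with carnosine, so the libraries of the pair were apart in opposite directions. The change of ATP6V0E2 did not pass (log2 fold change 0.30 ± 0.12, edgeR adjusted p = 0.16).

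NOP14-AS1 (ENSG00000249673.6, chr4:2934899-2961738, plus strand) fell from 8.61 and 9.68 CPM to 4.76 and 4.79 CPM (log2 fold change -0.94 ± 0.16, edgeR adjusted p = 0.0218), a call lost without control replicate 2 (edgeR adjusted p = 0.0778). NOP14, which is needed to make the small ribosomal subunit, was at 115 and 112 CPM in controls and 85.9 and 89.4 CPM with carnosine. Its log2 fold change of -0.37 ± 0.09 did not pass (edgeR adjusted p = 0.0581) but did with no filter (0.0259) and by DESeq2 (0.0211). ATP2A1-AS1 (ENSG00000260442.5, chr16:28878957-28879920, minus strand) had 4.73 and 5.86 CPM in controls and 2.89 and 2.96 CPM with carnosine (log2 fold change -0.85 ± 0.20, edgeR adjusted p = 0.0491). This call, the nearest to the threshold, was lost with any 1 of the 4 libraries left out, at adjusted p values of 0.066 to 0.241, and also by limma-voom (0.0575) and with any other scaling (0.0501 to 0.0649). ATP2A1, the calcium pump of fast skeletal muscle, had raw counts of 32, 17, 11 and 5 in the order control 1 and 2, carnosine 1 and 2. PXN-AS1 (ENSG00000255857.5, chr12:120201291-120213138, plus strand) had 5.03 and 4.81 CPM in controls and 2.88 and 2.66 CPM with carnosine (log2 fold change -0.83 ± 0.19, edgeR adjusted p = 0.0457), and was also not called with any 1 library left out (adjusted p = 0.0671 to 0.177), by upper-quartile scaling (0.0504) or by total counts (0.0651). PXN, which encodes the focal adhesion protein paxillin, overlapped between the groups at 365 and 298 against 319 and 256 CPM.

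A head-to-head pair is that of TMCC1-AS1, which fell. TMCC1-AS1 (ENSG00000271270.5, chr3:129893811-129918575, plus strand), 205 bases from TMCC1, had 14.8 and 15.2 CPM in controls and 10.6 and 8.38 CPM with carnosine (log2 fold change -0.66 ± 0.15, edgeR adjusted p = 0.0453). Without control replicate 1, control replicate 2 or carnosine replicate 2 its adjusted p was 0.111, 0.132 and 0.0786, and by upper-quartile scaling and total counts 0.0527 and 0.0791. TMCC1, an endoplasmic reticulum membrane protein, stayed between 16.1 and 18.2 CPM in the 4 libraries.

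Within pairs, the same and the opposite direction were about as frequent. Of the 142 pairs in which both genes were tested, 69 had log2 fold changes of the same sign and 73 of opposite sign. Across these pairs Pearson's r of the log2 fold changes was 0.11 and Spearman's rho 0.0087, a description over gene pairs measured in the same 4 libraries, which are not independent replicates. Of the 4 antisense RNAs that rose, 1 had a sense gene that rose (ZNF295-AS1), 2 had one that did not pass and 1 had one that was not tested. All 8 that fell had a sense gene that did not pass. Conversely, 7 sense genes rose and 10 fell beside an antisense RNA that did not pass.

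**Figure D2:**
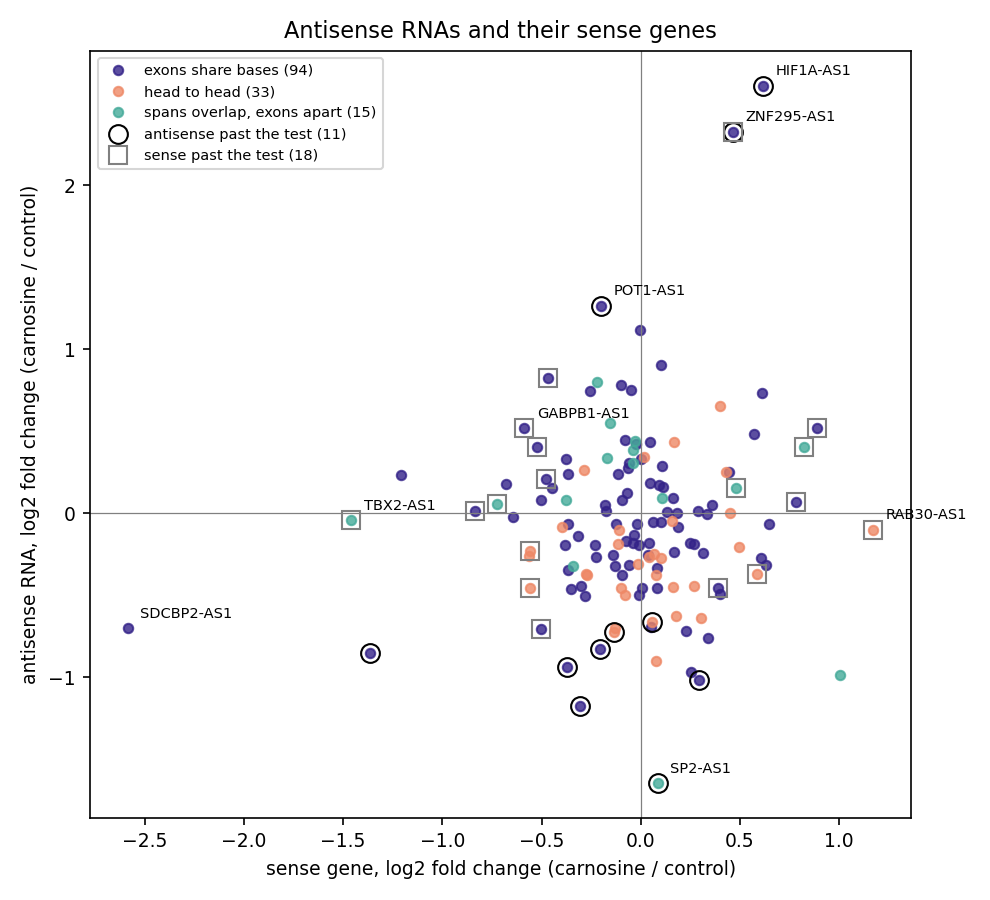
Log2 fold change (carnosine over control) of each antisense RNA on the vertical axis against that of its sense gene on the horizontal axis, for the 142 pairs with both genes tested, coloured by how the pair lies on the genome. Circles mark the 11 antisense RNAs and squares the 18 sense genes past the test in these pairs, and only the ZNF295-AS1 point carries both marks.

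The ratio of antisense to sense CPM within a library gives the balance of each pair. Both carnosine libraries had a higher ratio than both controls in 41 of 142 pairs (28.9%) and a lower one in 48 (33.8%), or 62.7% together, and the ratios overlapped in 53. The levels of single genes were apart in this way for 56.5% of all genes tested and 60.0% of those with a mean count of at least 100. The share of pairs is near these, and ratios of other gene pairs were not computed, so the counts are no result about the pairs. The median change of the log2 ratio was -0.10. With 2 libraries against 2 an exact permutation test cannot go below p = 0.33, so single pairs are given as values. HIF1A-AS1 had log2 ratios of -10.90 and -9.59 in controls and -8.35 and -7.96 with carnosine, and ZNF295-AS1 had -5.04 and -5.53 against -3.06 and -3.81. POT1-AS1 went from -4.30 and -4.92 to -2.91 and -3.38. In these 3 the antisense RNA had the larger change.

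In the pair of TBX2-AS1 the sense gene had the larger change. TBX2-AS1 had log2 ratios of -4.62 and -4.28 in controls and -3.30 and -2.77 with carnosine while its own level stayed between 4.89 and 6.37 CPM. In the pair of GABPB1-AS1 both partners differed by about as much, in opposite directions. Its log2 ratio went from 0.11 and 0.30 to 1.32 in both carnosine libraries, so that the antisense RNA, at about the level of its sense gene in controls, had more than 2 times its CPM with carnosine. The highest change of all, 2.23 for SDCBP2-AS1, rests on SDCBP2 counts of 18, 18, 4 and 1 and was picked out after its values were seen. Where the ratio was lower with carnosine, the antisense RNA had the larger change in the pairs of SP2-AS1 and ATP6V0E2-AS1. SP2-AS1 went from -1.14 and -0.47 to -2.86 and -2.26 and ATP6V0E2-AS1 from -4.16 and -3.82 to -5.16 and -5.47.

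How the pair lies on the genome was taken from GENCODE 29. In 108 pairs the exons share bases on opposite strands (3 to 1975 bases, median 352.5). In 33 the genes lie head to head with a gap of 1 to 1376 bases (median 110), and in 19 the spans overlap while the exons stay apart. The 4 antisense RNAs that rose and 5 of the 8 that fell were in the first class (8.33% called). Of the others that fell, 2 were head to head (6.06% called) and 1, SP2-AS1, was in the third class (5.26% called). Over all genes tested 8.31% were called, and 10.5% of those with a mean count of at least 100. The shares are near or below these, so the counts are no result about the classes. Of the 33 head-to-head antisense RNAs, 27 had a log2 fold change below 0, with a median of -0.27, beside 49.9% below 0 over all genes tested. Both carnosine libraries were below both controls in 20 of them, as for 28.8% of all genes tested, and above in 3, as for 27.8%. Their sense genes had a median of 0.05 with 14 of 33 below 0. Summed over the 33 antisense RNAs the level was 296 and 314 CPM in controls and 281 and 246 CPM with carnosine, so the lower sum rested more on carnosine replicate 2. The exon-sharing antisense RNAs had a median of -0.04 and those with exons apart a median of 0.16. No test of the difference between these classes was made.

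**Figure D3:**
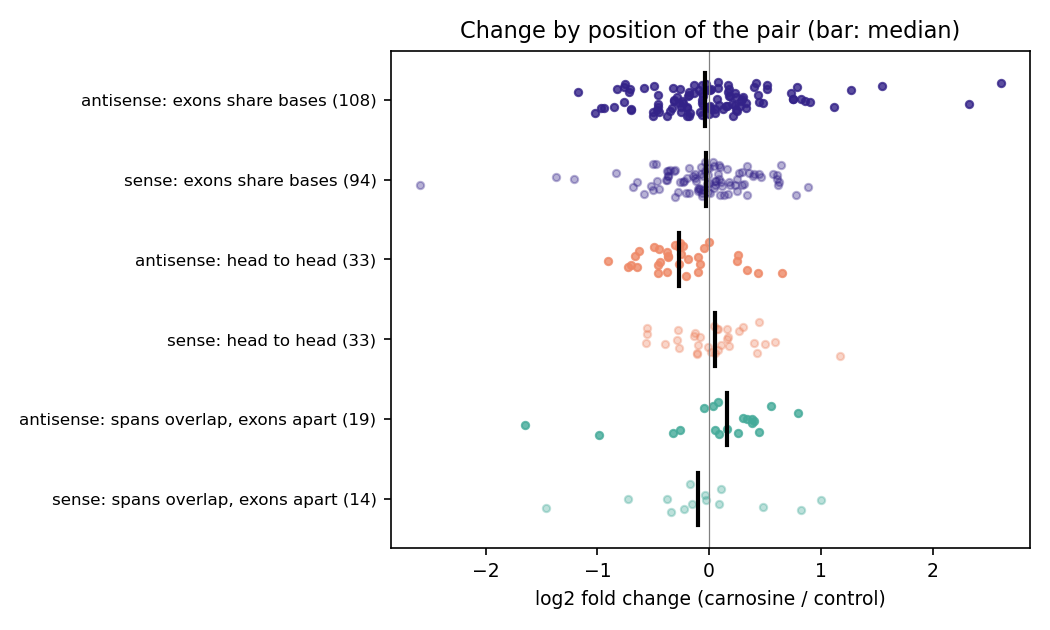
Log2 fold change (carnosine over control) of antisense RNAs and of their tested sense genes by position of the pair, with 1 point per gene and a bar at the median. The 33 head-to-head antisense RNAs have a median of -0.27, while their sense genes have a median of 0.05.

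Overlap with any exon of the opposite strand, not only that of the named partner, was found for 124 of the 162, and 38 had none. No antisense RNA lay wholly under opposite exons. Of the 38, which overlap no annotated exon of the other strand, 3 fell (7.89% called), SP2-AS1 and TMCC1-AS1 among them. The median of the 38 was -0.27. The other 124 had 4 that rose and 5 that fell (7.26% called), with a median of -0.05. Both shares are near the 8.31% called over all genes tested, so these counts are no result about overlap. By gene type 106 are listed as antisense, 26 as lincRNA and 23 as processed transcript. MMP24-AS1 and NCBP2-AS2 are listed as protein coding, so the name does not make a gene noncoding. PSMD5-AS1 and TP73-AS1 are listed as transcribed unitary pseudogenes, and SVIL-AS1 and EMC3-AS1 as transcribed unprocessed pseudogenes, a class that arises by duplication. Whether reads of these last 2 also match another copy was not tested.

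Compared per length (CPM per kb of exonic bases, averaged over libraries), antisense RNAs were mostly the lower partner. They stood below their sense gene in 115 of 142 pairs and above it in 27, with a median of 19.2% of the sense level. The median was 16.9% where exons share bases, 25.3% head to head and 32.4% with exons apart. The lengths include bases under opposite exons, where the rule for counting reads is not given. The part of that rule in this order was not tested. VIM-AS1 was at 0.322% of VIM, the intermediate filament gene that marks this line (4.00 against 1244 CPM per kb). At the other end DLGAP1-AS1 stood at 226 times DLGAP1, a synaptic scaffold gene, and ATP2A1-AS1 at 127 times ATP2A1, both beside a sense gene with few counts. In 18 further pairs the sense gene had too few counts to be tested, with mean counts of 0 to 9.25.

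The 6 antisense RNAs with the most counts did not pass the test. LRRC75A-AS1 was the highest by far, at 488 and 474 CPM in controls and 515 and 569 CPM with carnosine (log2 fold change 0.17 ± 0.11, edgeR adjusted p = 0.377), and at 136 CPM per kb it also led per length. It carries the small nucleolar RNAs SNORD49A, SNORD49B and SNORD65, and its sense gene LRRC75A had raw counts of 0, 3, 4 and 0. FGD5-AS1 was at 143 and 157 CPM in controls and 145 and 153 CPM with carnosine, with overlapping groups. OIP5-AS1 was at 77.0 and 83.0 CPM against 91.2 and 98.0 CPM (log2 fold change 0.24 ± 0.10, edgeR adjusted p = 0.176), while OIP5, which helps to load the centromere histone, had 11.6 and 9.89 against 7.95 and 8.76 CPM (-0.37 ± 0.15, adjusted p = 0.179). Libraries of both genes were apart, in opposite directions, without passing.

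APCDD1L-AS1 had 73.6 and 77.9 CPM in controls and 71.6 and 54.5 CPM with carnosine (log2 fold change -0.26 ± 0.14, edgeR adjusted p = 0.277). Without carnosine replicate 1 it passed, at -0.48 (edgeR adjusted p = 0.0495), and so did its sense gene APCDD1L, at -0.87 (0.0106) against -0.56 ± 0.19 with all libraries (0.107). APCDD1L also passed with no filter (0.000173) and by DESeq2 (0.0437). The low value in each case came from carnosine replicate 2. MMP24-AS1 was at 53.4 and 47.7 CPM against 45.5 and 38.1 CPM (log2 fold change -0.27 ± 0.12, edgeR adjusted p = 0.203). MMP24, a membrane-bound metalloprotease, had raw counts of 41 and 64 in controls and 38 and 96 with carnosine.

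GABPB1-AS1 came closest to the threshold among the 6, with 34.5 and 42.8 CPM in controls and 52.3 and 58.4 CPM with carnosine (log2 fold change 0.52 ± 0.13, edgeR adjusted p = 0.0574). It passed without carnosine replicate 1 (0.59, edgeR adjusted p = 0.0433), with no filter (0.000878) and by DESeq2 (0.0123). GABPB1, a partner of the ETS factor GABPA in the control of mitochondrial and housekeeping genes, went the other way and fell, from 31.9 and 34.7 CPM to 20.98 and 23.4 CPM (log2 fold change -0.59 ± 0.11, edgeR adjusted p = 0.0309). Its call was lost without control replicate 1 (edgeR adjusted p = 0.0624), control replicate 2 (0.138) or carnosine replicate 1 (0.0595). Per length GABPB1-AS1 stood at 56.0% of GABPB1 over all libraries.

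Of the 139 tested sense genes 8 rose and 10 fell, or 12.9% called, beside 8.31% of all genes tested and 10.5% of those with a mean count of at least 100. Their median log2 fold change was -0.02, and both carnosine libraries were apart from both controls for 55.4% of them. Over all genes tested 56.5% were apart in this way, and 60.0% of those with a mean count of at least 100, so that share is no result about the sense genes. PSMD5, TBX2 and ZNF436 were among those called with each library left out. ZNF436, a zinc finger gene, rose from 23.6 and 24.8 CPM to 38.9 and 44.2 CPM (log2 fold change 0.78 ± 0.11, edgeR adjusted p = 0.0167), beside a ZNF436-AS1 whose groups overlapped (3.45 and 5.15 against 4.32 and 4.69 CPM). PAPPA, the protease that frees insulin-like growth factor from its binding proteins, rose from 152 and 175 CPM to 262 and 317 CPM (0.82 ± 0.14, adjusted p = 0.0213) but was not called without control replicate 1 (0.0694). PAPPA-AS2 stood at 6.15 and 5.33 against 8.13 and 7.05 CPM and did not pass (0.40 ± 0.17, adjusted p = 0.184). TRIM52, an ubiquitin ligase gene, rose from 18.5 and 19.7 CPM to 29.4 and 27.8 CPM (0.59 ± 0.11, adjusted p = 0.0279) beside a TRIM52-AS1 that was lower in both carnosine libraries without passing (-0.37 ± 0.18, adjusted p = 0.24). The TRIM52 call was lost without control replicate 1 (adjusted p = 0.135) or control replicate 2 (0.0866).

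Downward, TBX2, a T-box repressor, had the largest fall among the sense genes that passed, from 156 and 94.8 CPM to 54.7 and 36.5 CPM (log2 fold change -1.46 ± 0.27, edgeR adjusted p = 0.0279, from -1.78 to -1.06 with 1 library left out). TBX2-AS1 was at 6.37 and 4.89 CPM in controls and at 5.57 and 5.36 CPM with carnosine. PSMD5, an assembly chaperone of the proteasome, fell from 94.4 and 98.6 CPM to 54.4 and 62.5 CPM (-0.72 ± 0.11, adjusted p = 0.017), and PSMD5-AS1 overlapped between 11.1 and 16.4 CPM. EIF3J, a translation initiation subunit, fell by a log2 fold change of -0.56 (adjusted p = 0.0224, lost without control replicate 2 at 0.109). URB1, a ribosome assembly factor, also had -0.56 (adjusted p = 0.0264, lost without control replicate 1 at 0.122 or control replicate 2 at 0.0793). EIF3J-AS1 and URB1-AS1, 134 and 104 bases away head to head, overlapped between the groups.

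Some other called sense genes are named after their values were seen. RAB30 (log2 fold change 1.17), MSC (0.89), TRAF3IP2 (0.48) and KDM4A (0.39) rose, and STX18 (-0.52), THAP7 (-0.51), STARD7 (-0.48) and VAC14 (-0.47) fell, with edgeR adjusted p values of 0.0287 to 0.0464. Each of these 8 calls was lost with at least 2 of the 4 libraries left out in turn. RAB30, a Golgi GTPase, was at 9.72 and 5.61 CPM in controls and 19.0 and 15.6 CPM with carnosine, with left-out values from 0.83 to 1.62, while RAB30-AS1 stayed between 2.36 and 3.14 CPM. Of the 18 sense calls, more were lost with either control library left out than with either carnosine library left out. Calls over all genes tested also became fewer without either control library, so this loss is no result about the sense genes.

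**Figure D4:**
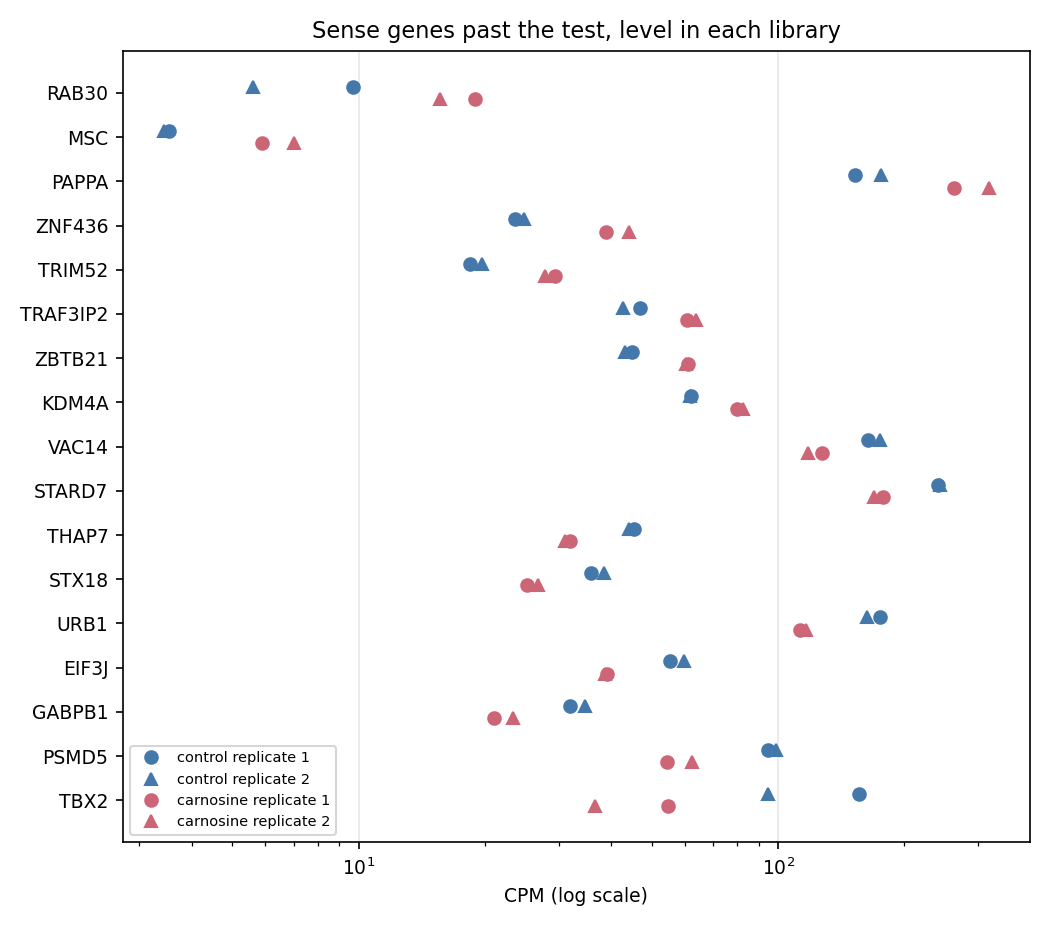
Level of 17 of the 18 sense genes that passed the test in each of the 4 libraries, in CPM on a log axis, with 1 point per library (blue for control, red for carnosine). The top 8 rows rose and the lower 9 fell, and the controls of TBX2 lie farther apart (156 and 94.8 CPM) than those of PSMD5 (94.4 and 98.6 CPM).

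Machinery that acts on antisense RNAs was read from 3 lists, chosen with earlier results of these data known. Of 26 tested genes of the nuclear RNA exosome and its cofactors, 6 fell, or 23.1%. Over all genes tested 4.36% fell, and 5.85% of those with a mean count of at least 100. Of the 26, 20 had a log2 fold change below 0, where 52.9% of genes with such a mean count did. The list's median was -0.22, beside 0.00 over all genes tested and -0.02 over those with such a mean count. All 6 are subunits of the exosome itself. EXOSC8 fell from 57.8 and 68.3 CPM to 34.1 and 38.2 CPM (log2 fold change -0.80 ± 0.12, edgeR adjusted p = 0.0174). EXOSC2 fell from 107 and 117 CPM to 65.6 and 72.6 CPM (-0.70 ± 0.11, adjusted p = 0.0177) and EXOSC3 from 57.4 and 58.3 CPM to 36.4 and 38.2 CPM (-0.64 ± 0.09, adjusted p = 0.017). EXOSC10, the nuclear exonuclease, fell from 139 and 136 CPM to 93.4 and 88.9 CPM (-0.59 ± 0.10, adjusted p = 0.0205). EXOSC1 (-0.63) and EXOSC4 (-0.53), named after their values were seen, complete the 6. In each of the 4 with values both carnosine libraries were well below both controls. Without control replicate 2 the calls of EXOSC3 (adjusted p = 0.0526), EXOSC2 (0.0577) and EXOSC10 (0.0739) were lost, and EXOSC10 was also lost without control replicate 1 (0.075). Over the list the number that fell was 1 to 8 with 1 library left out.

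No gene of this list rose by edgeR, DESeq2 or limma-voom (0 each, with 12 of 26 at an unadjusted edgeR p under 0.05). DIS3, the other catalytic subunit of the exosome, had a log2 fold change of 0.09, and RBM7, which brings nuclear RNAs to it, of 0.41 (adjusted p = 0.16). The 162 antisense RNAs had a median of -0.07 in the same libraries.

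**Figure D5:**
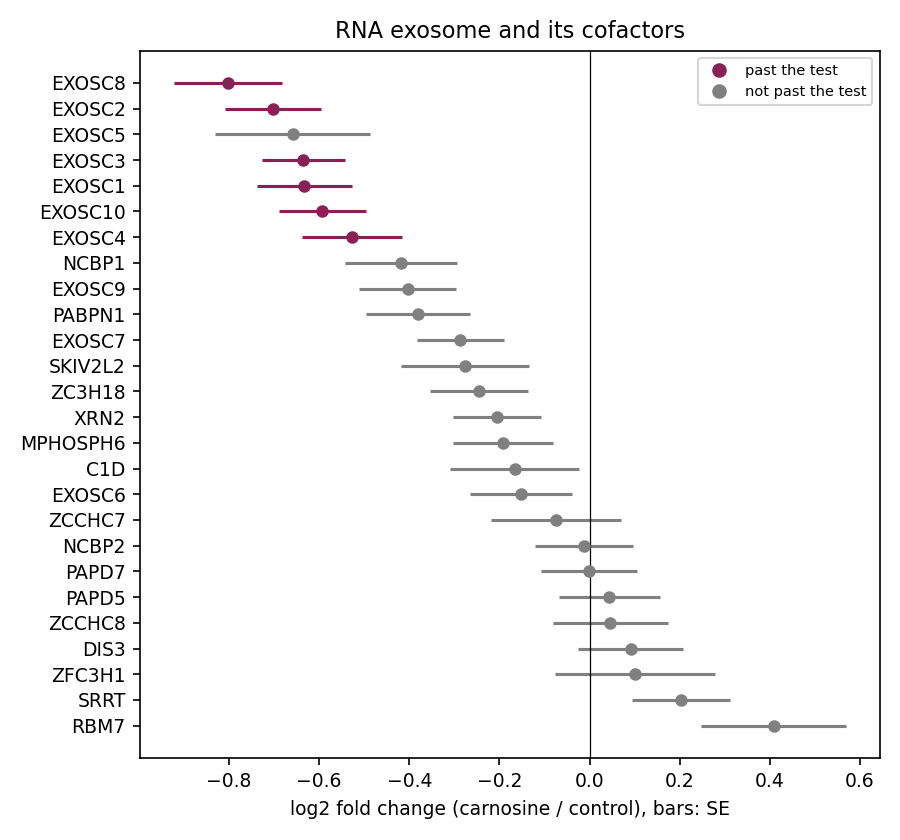
Log2 fold change (carnosine over control) of the 26 tested genes of the RNA exosome and its cofactors, with bars for the SE and dark points for genes past the test. The 6 that passed are all exosome subunits between -0.80 and -0.53.

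Of 11 genes that edit or bind double-stranded RNA, the form an antisense RNA and its partner can make, 1 fell (9.09%). Over all genes tested 4.36% fell, and 5.85% of those with a mean count of at least 100. The 1 gene of this list that fell is given next. This was the RNA helicase DHX9, from 405 and 433 CPM to 261 and 305 CPM (log2 fold change -0.57 ± 0.12, edgeR adjusted p = 0.0389), a call lost without control replicate 1 (0.100), control replicate 2 (0.19) or carnosine replicate 1 (0.0624). The list's median was -0.13 and 3 genes had an unadjusted p under 0.05. None rose by edgeR or limma-voom (0 each), and 1 did by DESeq2. Of 10 genes of PRC2, the repressive histone methyltransferase complex that many long noncoding RNAs bind, 2 rose (20%) and 1 fell (10%), with a median of -0.08. Over all genes tested 3.95% rose and 4.36% fell, and over those with a mean count of at least 100 4.65% rose and 5.85% fell. EZH1, a catalytic subunit, rose from 19.5 and 18.9 CPM to 33.9 and 29.6 CPM (0.73 ± 0.12, adjusted p = 0.0197, lost without control replicate 2 at 0.0632). EZH2, the other catalytic subunit and the more abundant one, was lower in both carnosine libraries without passing, at 71.4 and 57.7 CPM against 46.7 and 46.1 CPM (-0.48 ± 0.12, adjusted p = 0.0597), and the core subunit EED had -0.43 (adjusted p = 0.0846). JARID2, an accessory subunit, rose from 14.4 and 17.8 CPM to 27.0 and 24.9 CPM (0.69 ± 0.14, adjusted p = 0.0333, lost without control replicate 1 at 0.143 or carnosine replicate 1 at 0.0543). SUZ12, a core subunit, fell from 49.0 and 48.1 CPM to 37.4 and 33.4 CPM (-0.45 ± 0.10, adjusted p = 0.043), a call lost without control replicate 1 (0.177), control replicate 2 (0.158) or carnosine replicate 2 (0.0918), or by total counts (0.0791). The part of these shifts in the antisense levels was not tested.

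At the edge of the choice, STXBP5-AS1 had a mean count of 100, with raw counts of 127 and 152 in controls and 51 and 70 with carnosine (log2 fold change -0.97 ± 0.35). Next inside, ATP6V1B1-AS1 had a mean of 102.75, with 125 and 161 against 69 and 56 (-0.99 ± 0.32). Just outside, TMC3-AS1 with a mean of 98.25 had 0.21 ± 0.30 and NRSN2-AS1 with a mean of 95.5 had 0.47 ± 0.30. None of these 4 passed, with edgeR adjusted p values of 0.135, 0.0998, 0.705 and 0.365, but with no filter the first and second did (0.0238 and 0.0187). STXBP5-AS1 and ATP6V1B1-AS1 had mean counts of 139.5 and 143 in controls but 60.5 and 62.5 with carnosine. Both are thus members only through the controls, where they are high, so their falls were partly set by the choice. On simulated counts of 16022 genes with 2 libraries per group, the share of changed genes that passed was 19.4% for a 1.5-fold change. It was 50.8% for a 2-fold change and 88.5% for a 4-fold one. Only 200 genes were changed there, while 1358 were called in the data. Fewer changed genes make the adjusted threshold stricter, so these shares may understate the recovery in the data. A further 206 antisense RNAs had a mean of at least 10 and below 100. Of the 202 of them that were tested, 5 were higher and 2 lower past the test, or 3.47%. Over all 16340 genes tested the share was 8.31%. However, 1256 of those 1358 calls were among the 11967 genes with a mean count of at least 100. Genes with fewer counts were thus called less often than 8.31%, so the lower share is no result about these antisense RNAs.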

How the data were processed

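The authors deposited raw counts per gene (whole numbers, not normalized) for 4 libraries. Per the labels' protocols, total RNA was depleted of ribosomal RNA, made into stranded libraries and read as pairs of 101 bases. The build hg38 and the tools HISAT2 2.1.0, HTSeq 0.6.1 and bcl2fastq 2.17.0 are listed in the submitters' processing notes. Strand setting, annotation release and handling of multiply matching reads: not given in the sources used here. No columns of other samples were present (0).

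Groups were taken from the treatment label. Genes were kept by filterByExpr defaults (16340 tested, 41879 removed), scaled by TMM (factors 0.976 to 1.04) and compared with edgeR 4.0.16 in R 4.3.3 by a two-sided quasi-likelihood F test of the group (residual degrees of freedom: 2). P-values were adjusted by Benjamini-Hochberg across the tested genes and called under 0.05. The SE is the log2 fold change divided by the square root of F. CPM uses scaled library sizes. Positions and gene types came from GENCODE 29 (GRCh38), matched by identifier (162 of 162). Levels per length divide CPM by the kb of exonic bases over all transcripts.

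The members, the lists and the tests were chosen with earlier results of these data known. Genes named are the antisense RNAs past the threshold (at most 15 per direction), the 6 with the most counts, their sense genes, the 2 nearest the count minimum on each side, up to 8 pairs by the adjusted p of the sense gene, and up to 4 passing genes per list. Some of these are not reported here, but stay in the fits and counts. Alternatives were other scalings, filters and tools (DESeq2 1.42.0, limma 3.58.1), a replicate block, other count minimums and each library left out. Simulated counts with 200 changed genes tested the procedure: of 109 calls, 9 were false and 0 had the wrong sign.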

Additional observations from a re-analysis of the deposited data

How the results depend on the processing

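Counts of calls moved with the filter, the tool, the scaling and the libraries. The median log2 fold change of all genes tested was 0.0009 in the main fit and at most 0.0255 under the other scalings, the last by total counts. Antisense RNAs that rose numbered 4, but 16 with no filter, 11 by DESeq2, 7 with a mean count of at least 50, 2 with at least 200, 0 among those with no exonic base under an opposite exon (an alternative chosen after seeing the data) and 3 to 7 with 1 library left out. Those that fell numbered 8, but 5 by upper-quartile scaling, 4 by total counts, 17 with no filter, 3 with no opposite exon and 1 to 8 with 1 library left out. Sense genes that rose numbered 8, but 17 with no filter, 13 by DESeq2, 5 with a mean of at least 200 and 2 to 8 with 1 library left out, and those that fell 10, but 20 with no filter, 6 with at least 200 and 4 to 9 with 1 library left out. Of the exosome list 10 fell with no filter and 1 to 8 with 1 library left out. Of the double-stranded RNA list 1 rose with no filter and 1 by DESeq2, and 2 fell with no filter (0 to 1 rose and 0 to 1 fell with 1 library left out). Of the PRC2 list 0 fell by total counts, 2 with no filter and 2 by DESeq2, and 1 to 2 rose and 0 to 1 fell with 1 library left out. The median change of the log2 ratio of the pairs, -0.0981, ran from -0.1924 to 0.0162 with 1 library left out, the last without control replicate 2.

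The labels number the libraries 1 and 2 in both groups, which gives 2 pairs. Same-numbered libraries had deviations correlated at 0.3145, which does not establish a pairing. With the replicate number as a block, 29 antisense RNAs rose and 36 fell, 27 sense genes rose and 35 fell, and of the lists 1 exosome gene rose and 14 fell, 1 double-stranded RNA gene rose and 3 fell, and 3 PRC2 genes fell. Calls rose over the whole table under the block, to 35.3% of all genes tested (17.0% higher and 18.3% lower) and 42.9% of those with a mean count of at least 100, beside 40.1% of the antisense RNAs and 44.6% of the sense genes. Of genes with a mean count of at least 100, 22.4% were called with no filter and 17.4% by DESeq2, beside 20.4% and 13.6% of the antisense RNAs.

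Of 684 values of named genes under alternatives, 591 kept direction and call and 13 changed sign, none of them a call. FGD5-AS1 (log2 fold change -0.01) came to 0.0065 by upper-quartile scaling, 0.0151 by total counts and -0.0779 to 0.0555 with 1 library left out. With 1 library left out the range was -0.3364 to 0.5919 for SP2, -0.0185 to 0.1239 for TMCC1, -0.0719 to 0.4342 for TMC3-AS1, -0.2565 to 0.3014 for PSMD5-AS1, -0.1970 to 0.3821 for ZNF436-AS1, -0.2247 to 0.1563 for TBX2-AS1 and -0.3952 to 1.1978 for MMP24. DESeq2 gave ATP2A1 no adjusted p. The cause of these changes was not tested. At 2 libraries per group, changes under 2-fold were often missed on simulated counts, which had fewer changed genes than the data had calls.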
